A study of Rattus norvegicus with 30 samples.

Results

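Complex I, the NADH:ubiquinone oxidoreductase, is the entry point of electrons from NADH into the mitochondrial respiratory chain. Its nuclear-encoded genes were followed in the hearts of young, adult and old rats. The genes were taken as all rows of the processed expression tables whose name begins with Ndufa, Ndufb, Ndufc, Ndufs, Ndufv or Ndufaf. Each of the tables for 8, 21 and 78 weeks of age held 51 such rows, out of 27408, 27383 and 26553 rows. These rows stood for 41 gene names and 59 of the 41012 non-control probes of the array. They comprised 36 structural subunits of the complex, 3 assembly factors (Ndufaf1, Ndufaf3 and Ndufaf4), Ndufa4, and Ndufa10l1, a sequence named for its likeness to Ndufa10. Ndufa4 was named as a complex I subunit but is now placed with cytochrome c oxidase (complex IV).

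The samples were whole hearts of 30 untreated Fischer 344 rats, a widely used inbred strain, aged 8, 21 or 78 weeks, each age group being made of 5 females and 5 males. The labels name no genetic change and no agent for any group. RNA of each heart was hybridized alone, in 1 colour (Cy3), to an Agilent whole rat genome array with 4 arrays on each slide. Whole heart RNA mixes cardiomyocytes with vascular, connective tissue and blood cells, so fewer cells of a type and less RNA per cell cannot be told apart. The 8 cardiomyocyte markers checked, among them Myh6, Tnnt2 and Pln, were all measured, and none of them was near background throughout.

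In the complex, a matrix arm oxidizes NADH on a flavin and passes the electrons along iron-sulfur clusters to ubiquinone, and a membrane arm uses the energy to pump protons. The catalytic core of the matrix arm includes Ndufv1, Ndufv2 and Ndufs1, which take up the electrons, and Ndufs3, Ndufs7 and Ndufs8 in the part that hands them to ubiquinone. The core of the membrane arm is encoded by mitochondrial DNA and is not among the genes described here, while the accessory subunits in both arms, coded in the nucleus, hold the complex together. The heart depends on this chain for most of the ATP that contraction consumes.

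The array's own probes, of 60 bases each, are needed to read the measurements, because 10 of the 41 names had a second row and some pairs of rows turned out to lie on opposite strands of the same stretch of genome. The Ndufa3 pair lay at chr1:63987736-63987795 on the minus strand and at chr1:63987735-63987794 on the plus strand of the rn3 build, and 59 of the 60 bases of one probe are the reverse complement of the other. The shared run is in capitals, for this pair and for the pairs of Ndufb10 (49 bases; chr10:13977701-13977879, minus, and chr10:13977690-13977868, plus) and Ndufab1 (50 bases; chr1:181052741-181052800, minus, and chr1:181052751-181054519, plus). In each pair the brighter probe, which was used for the gene, comes first.
Ndufa3 brighter: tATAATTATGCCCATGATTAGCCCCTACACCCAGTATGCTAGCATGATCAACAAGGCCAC
Ndufa3 opposite: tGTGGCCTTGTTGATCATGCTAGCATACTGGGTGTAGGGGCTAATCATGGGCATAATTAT
Ndufb10 brighter: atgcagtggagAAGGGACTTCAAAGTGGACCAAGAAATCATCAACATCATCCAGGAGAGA
Ndufb10 opposite: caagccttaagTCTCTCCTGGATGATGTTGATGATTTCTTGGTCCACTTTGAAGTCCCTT
Ndufab1 brighter: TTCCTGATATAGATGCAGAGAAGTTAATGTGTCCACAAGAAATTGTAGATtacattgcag
Ndufab1 opposite: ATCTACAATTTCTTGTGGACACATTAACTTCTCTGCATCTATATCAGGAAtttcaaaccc
The Ndufs1 and Ndufa10 probes carry the 2 differences called between the oldest and the youngest hearts. The Ndufs1 probe lay at chr9:61958828-61958887 on the minus strand, and the Ndufa10 probe at chr9:91860163-91860222 on the plus strand (rn3). RefSeq places both genes on the minus strand of chromosome 9 in GRCr8, a later build, and these builds were not aligned with each other. The strand label of the Ndufa10 probe thus differed from that of its RefSeq gene. Of 37 genes with a RefSeq strand, 33 had a brightest probe with the same label and 4 (Ndufa1, Ndufa10, Ndufa11 and Ndufc1) with the other. Labels of unaligned builds need not name the same strand. The Ndufa11 probe lay on sequence without a chromosome (Un) in rn3, and Ndufs6 lay on chromosome 2 in rn3 and 1 in GRCr8. Whether the probes of the 4 genes with differing labels read the gene's own transcript was not tested. The scanner files name the Ndufa10 probe after a genomic contig and not after the gene.
Ndufs1: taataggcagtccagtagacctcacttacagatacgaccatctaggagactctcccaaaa
Ndufa10: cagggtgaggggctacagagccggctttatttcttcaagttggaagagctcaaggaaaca

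The 250 bases before the start of the gene are shown for Ndufs6 and Ndufv2, which were among the genes that varied most closely with the other subunits from heart to heart, and for Ndufs1, which was among the least close. The windows are those of RefSeq in GRCr8, at chr1:31797150-31797399 (plus strand), chr9:113157521-113157770 (minus strand) and chr9:72073606-72073855 (minus strand). Capitals mark GCGC followed by any 2 bases and GCGC again, the letters bound by nuclear respiratory factor 1 (NRF1), in the Ndufs6 and Ndufv2 windows, and CCGGAAGT, the letters of the ETS family, read on the other strand in the Ndufs1 window.
Ndufs6: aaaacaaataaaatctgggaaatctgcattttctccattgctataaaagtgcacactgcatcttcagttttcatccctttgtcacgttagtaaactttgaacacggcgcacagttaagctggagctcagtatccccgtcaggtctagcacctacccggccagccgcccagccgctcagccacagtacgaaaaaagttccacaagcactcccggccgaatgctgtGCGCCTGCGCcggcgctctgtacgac
Ndufv2: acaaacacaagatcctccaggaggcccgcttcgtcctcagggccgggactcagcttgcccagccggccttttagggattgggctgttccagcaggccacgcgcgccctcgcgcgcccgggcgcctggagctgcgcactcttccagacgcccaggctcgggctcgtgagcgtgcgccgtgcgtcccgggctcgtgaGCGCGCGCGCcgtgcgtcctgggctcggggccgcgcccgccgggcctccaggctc
Ndufs1: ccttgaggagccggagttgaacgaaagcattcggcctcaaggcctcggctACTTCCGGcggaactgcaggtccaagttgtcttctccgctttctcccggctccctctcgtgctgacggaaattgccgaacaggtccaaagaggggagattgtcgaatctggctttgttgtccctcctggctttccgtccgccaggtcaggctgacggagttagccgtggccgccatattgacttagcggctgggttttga
RefSeq promoter windows, which run on for 50 bases past the start, were found for 37 of the 41 genes, and both strands were searched. NRF1 letters were present in 9 of these 37 windows (24.3%), against 5.58% of all 33469 windows, and AAGATGGCG, the letters of YY1, in 7 (18.9%), against 1.73%. CCGGAAGT was present in 3 (8.11%, against 3.81%), the cAMP response element TGACGTCA in 2 (5.41%, against 1.83%), and TNAAGGTCA, the letters of the estrogen-related receptors, in 1 (2.7%, against 1.2%). Ndufs6 held both the NRF1 and the YY1 letters. Of other genes that varied closely with the subunits, Ndufa13 and Ndufb7 held CCGGAAGT, while Ndufa6, Ndufb5 and Ndufb6 held neither CCGGAAGT nor NRF1 letters. Ndufaf4, which followed less closely, held NRF1 letters. A link between letters and closeness was not tested.

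Signals were read as log2 of the scanner's processed signal relative to the 75th percentile of all probes of the same array, so that a difference of 1 is a 2-fold change. Each gene was represented by its brightest probe, and brightness was not compared between genes. All but 1 of the 41 probes were well above background on all 30 arrays. Ndufc1, a small membrane subunit, was so on 12 of 30. The strand label of its probe (chr2:140250208-140250267, plus strand, rn3) differed from that of its RefSeq gene in GRCr8. Ndufb8, a subunit of the distal membrane arm, was saturated on 28 of the 30 arrays, so it has no more than a bound, and its scaled differences follow the scale. Within groups of 5 hearts, Ndufc1 had the largest SD (0.64), followed by Ndufb8 (0.31) and Ndufs1 (0.30). The SD was smallest for Ndufa10l1 (0.11), whose probe was flagged on 17 arrays and measured on 13, and for Ndufa9 (0.15), an NADPH-binding subunit at the joint of the arms.

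The arrays themselves set limits on the comparison of ages. The study ran the ages in separate batches and made no test of age, and age and batch cannot be told apart here except for a single slide that held 2 arrays of 8 weeks and 2 of 78 weeks. The 75th percentile of the signal was lower on the 21-week arrays (39.9 to 123.1, median 101.3) than on those of 8 weeks (98.0 to 171.3, median 120.1), and males of 21 weeks had the lowest (39.9 and 65.6). Genes of the Y chromosome disagreed with the label on 2 of the 78-week arrays, female replicate 2 and male replicate 3, so the main age differences, the median correlations and the sex comparison at 78 weeks are also given without them.

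The clearest pattern on this scale was a higher signal of nearly the whole complex at 21 weeks than at 8 weeks. Of the 41 genes, 36 were higher and none was lower (limma, Benjamini-Hochberg adjusted p below 0.05 over all probes), while 53.5% of all probes passed the same test, and 39.0% of all probes were higher. The median difference was 0.46 over the 41 genes and 0.28 over all probes tested. It was similar in each part of the complex. All 11 subunits of the distal membrane arm were higher (median 0.51), as were 8 of 9 of the proximal membrane arm (median 0.49), 8 of 9 accessory subunits of the matrix arm (median 0.45) and 6 of 7 core subunits (median 0.43). These counts include saturated Ndufb8, whose scaled 0.57 follows the scale; without it 35 of 40 genes were higher, and 10 of 10 of the distal membrane arm (median 0.50). The genes that did not pass were Ndufs1 (0.08), Ndufa7 (0.06), Ndufc1 (0.58), Ndufaf4 (0.08) and Ndufa10l1 (0.19).

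**Figure D1:**
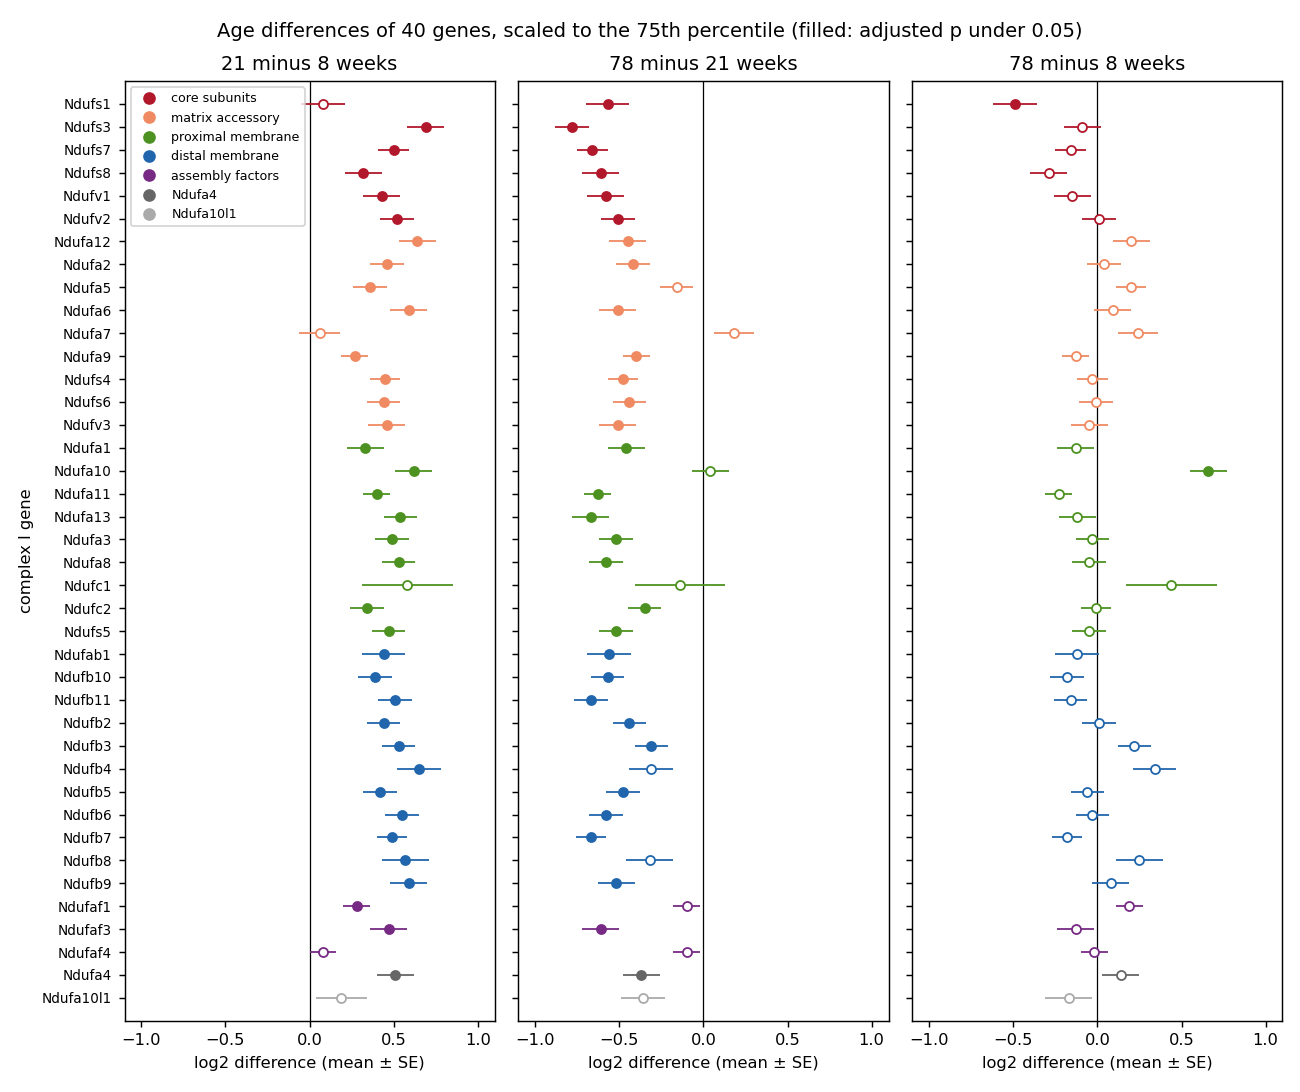
Log2 differences between ages for 40 of the 41 genes, grouped by their place in the complex; points are means over both sexes (10 hearts at each age, fewer where a spot was flagged), bars are standard errors and filled points have an adjusted p below 0.05. Most of the 40 genes plotted are filled and above 0 at 21 minus 8 weeks and filled and below 0 at 78 minus 21 weeks, whereas between 78 and 8 weeks only Ndufa10 and Ndufs1 were filled.

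Ndufs3, a core subunit of the ubiquinone-binding part, showed the largest difference. Its signal was 6.94, 6.84, 6.77, 6.87 and 6.94 in the 8-week females and 6.75, 6.75, 6.80 and 6.87 in the 4 males measured. At 21 weeks it was 7.22, 7.44, 7.21, 7.32 and 7.52 in females and 7.32, 8.09, 7.46, 7.35 and 8.27 in males. Every 21-week heart lay above every 8-week heart, with a difference of 0.69 (SE 0.11, adjusted p 2e-05, limma). The next largest were Ndufb4 (0.65, SE 0.13), Ndufa12 (0.64, SE 0.11), Ndufa10 (0.62, SE 0.11), Ndufa6 (0.59, SE 0.11) and Ndufb9 (0.59, SE 0.11). Ndufa12 is an accessory subunit of the matrix arm, Ndufa6 binds the acyl carrier protein Ndufab1 near the joint of the arms, and Ndufb4 and Ndufb9 belong to the far end of the membrane arm. The ages did not overlap for 13 of the 41 genes, among them Ndufs3, Ndufs7, Ndufa12 and Ndufaf3, and all 13 were higher at 21 weeks, where 6.65% of all probes did not overlap and 3.48% were higher without overlap.

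From 21 to 78 weeks the same scale gave the opposite picture. Of the 41 genes, 31 were lower and none was higher at 78 weeks, against 29.9% of all probes called and 16.6% called lower. The median difference was -0.48 for the 41 genes and -0.17 for all probes. Ndufs3 again differed most: the 78-week signals were 6.86, 6.67, 6.79, 7.12 and 6.69 in females and 6.58, 6.60, 6.67, 6.95 and 6.50 in males, all below the lowest 21-week heart (-0.78, SE 0.10, adjusted p 2.38e-06, limma). Lower by nearly as much were Ndufb7 (-0.67, SE 0.09), Ndufb11 (-0.67, SE 0.10) and Ndufa13 (-0.67, SE 0.11), all of the membrane arm, followed by Ndufs7 (-0.66, SE 0.09), the core subunit with the last iron-sulfur cluster, and Ndufa11 (-0.63, SE 0.08), a membrane subunit at the contact with complex III. The ages did not overlap for 8 of the 41, all lower at 78 weeks, against 3.67% of all probes in either direction and 1.58% lower. The 10 genes not called included Ndufa10 (0.04), Ndufa7 (0.18), Ndufa5 (-0.16) and Ndufb4 (-0.31). Without the arrays that disagreed with their label, 30 of the 41 genes were called, all lower (median -0.471, against 27.4% of all probes called in either direction), and Ndufs3 differed by -0.76 (SE 0.11). Ndufb7 (-0.65), Ndufb11 (-0.64), Ndufa13 (-0.65), Ndufs7 (-0.64) and Ndufa11 (-0.60) were also called without them. These comparisons share the 21-week hearts.

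How far the subunits themselves differed depended on what they were measured against. Over the 30 structural subunits measured on every array, the mean log2 signal before scaling was 12.88 ± 0.21 (SD, n = 10 hearts) at 8 weeks, 12.77 ± 0.28 at 21 weeks and 12.61 ± 0.14 at 78 weeks. The 21-week mean thus lay 0.11 (SE 0.11) below that of 8 weeks before scaling, and 0.45 (SE 0.09) above it after scaling, because the 75th percentile itself was 0.56 (SE 0.18) lower. Ndufb8, at the ceiling of the scanner, differed by 0.01 (SE 0.02) unscaled and by 0.57 (SE 0.14) scaled. Between 78 and 21 weeks the unscaled mean differed by -0.16 (SE 0.10) and the scaled mean by -0.45 (SE 0.10).

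**Figure D2:**
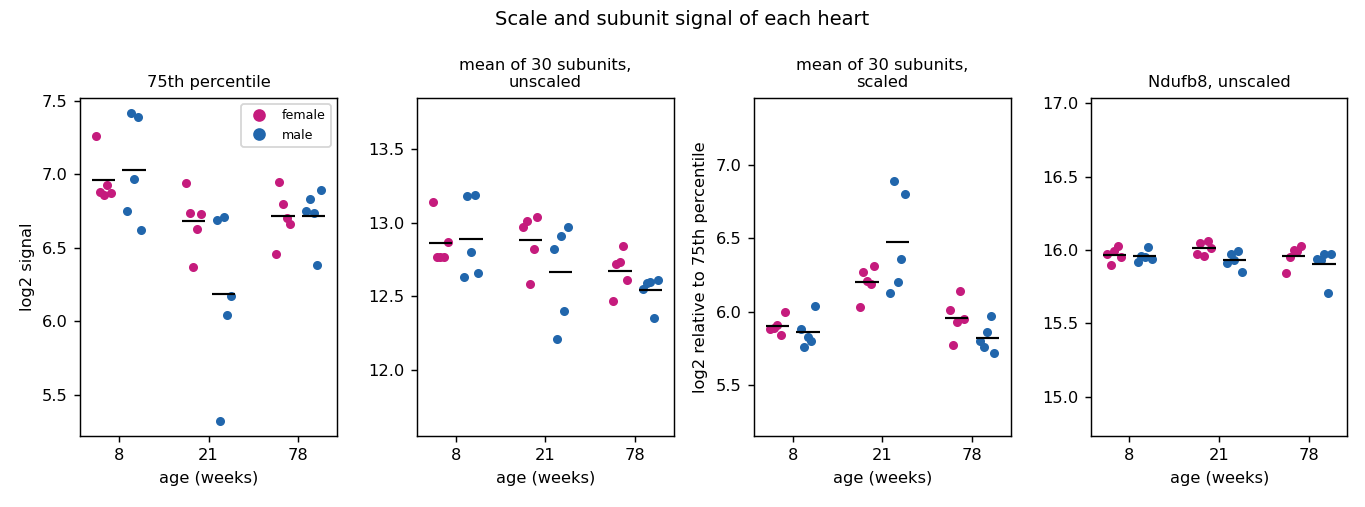
For each heart, the log2 of the array's 75th percentile, the mean log2 signal of 30 subunits before and after scaling to it, and the unscaled signal of saturated Ndufb8; points are hearts, short lines are group means of 5, and all panels span the same number of log2 units. Male replicate 2 at 21 weeks has the lowest 75th percentile (5.32 in log2), the lowest unscaled subunit mean (12.21) and the highest scaled one (6.89), while Ndufb8 stays near the ceiling at each age.

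When the arrays were given the same distribution (quantile normalization), 13 genes were called between 21 and 8 weeks, 10 higher and 3 lower, with a median of 0.07, against 31.2% of all probes. Ndufa1 (-0.17), higher on the 75th percentile scale, was called lower on this one. In the comparison of 78 with 21 weeks, 21 genes were called, 19 of them lower, against 30.8% of all probes. With normexp background correction, 1 gene was called between 21 and 8 weeks (median 0.05), against 6.30% of all probes. None was called between 78 and 21 weeks (median -0.41, 7 at unadjusted p below 0.05 in limma), against 2.68% of all probes. A refit chosen after the data were seen left out the 2 arrays on which normexp lowered the genes most. It gave 30 called genes between 21 and 8 weeks (median 0.25), against 75.9% of all probes. Between 78 and 21 weeks it gave 32 (median -0.37), against 17.1% of all probes. Ndufs3 was called in the same direction on the 75th percentile and quantile scales (after quantile normalization 0.32 at 21 against 8 weeks and -0.44 at 78 against 21 weeks). In females alone 2 of the 41 genes were called between 21 and 8 weeks (6.89% of all probes) and 5 between 78 and 21 weeks (8.57%). In males alone, who included the dimmest arrays, 36 genes were called in each comparison (52.2% and 30.8% of all probes). Whether these age differences differed between the sexes was not tested.

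Other genes moved with complex I at 21 weeks. Relative to 8 weeks, 3 of 4 subunits of complex II (median 0.39), all 8 of complex III (0.53), 9 of 10 of complex IV (0.41) and 13 of 15 of complex V (0.50) were higher, and none was lower. Of all probes 39.0% were higher and 14.6% lower, and the marker counts below stand against the same shares. Among the markers of heart cell types, 7 of 8 of cardiomyocytes were higher and 1, the calcium release channel Ryr2 (-1.0), was lower (median 0.57). Of the fibroblast markers 4 of 6 were lower and 1, Dcn (0.33), was higher (median -0.42), and 4 of 5 endothelial markers were lower (median -0.56). All 3 erythroid markers were higher (Alas2 0.48, Hbb 0.53 and Hba-a2 0.54), as were 2 of 5 of leukocytes (Cd68 0.29 and Cd74 0.57), 2 of 4 of atrial muscle (Myl4 0.64 and Myl7 0.54), 2 of 5 of skeletal muscle (Ckm 0.41 and Actn3 1.32) and 1 of 5 of adipose tissue (Cfd 1.07), with none lower. For leukocyte, skeletal muscle and adipose markers the share called higher was near or below that of all probes. The summed signal of the cardiomyocyte markers, in multiples of the 75th percentile, ranged from 2450 to 3580 at 8 weeks, 3370 to 8850 at 21 weeks and 3060 to 4420 at 78 weeks. That of the fibroblast markers ranged from 461 to 577, 276 to 372 and 187 to 393. Endothelial sums ranged from 12.5 to 169, 7.79 to 128 and 12.9 to 139 but are not comparable between hearts. Flagged spots were left out of the values, so a sum may lack a marker. Kdr (mean log2 6.94 at 8 weeks) far outshone the next brightest endothelial marker, Vwf (3.51), so a sum without Kdr reads low. Erythroid markers summed to 26.9 to 60.9, 36.2 to 94.6 and 15.2 to 61.4 at these ages, and leukocyte markers to 67.0 to 82.0, 88.4 to 173 and 62.7 to 108. The sums were 1140 to 1380, 1350 to 2640 and 1300 to 1730 for atrial, 308 to 378, 385 to 570 and 253 to 353 for skeletal muscle, and 29.7 to 141, 38.8 to 240 and 42.2 to 267 for adipose markers. No marker of these lists was below background on every array, but some were well above it on only part of the 30. Among these were Cd3e (1 array), Myh4 (3), Actn3 (12), Plin1 (13) and Myh2 (17). The part of these shifts in the complex I result was not tested.

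The assembly factors, which help build the complex but are absent from the finished enzyme, followed the subunits in part. Ndufaf3, which works with Ndufaf4 on the ubiquinone-binding part, ranged from 3.48 to 3.72 at 8 weeks, 3.80 to 4.97 at 21 weeks and 3.26 to 3.86 at 78 weeks. It was higher at 21 weeks than at 8 weeks by 0.47 (SE 0.11, adjusted p 0.000924, limma), without overlap of the hearts, and at 78 weeks it was lower than at 21 weeks (-0.61, SE 0.11; -0.57 without the arrays at odds with their label). Ndufaf1, which acts on the membrane arm, was higher at 21 weeks by 0.28 (SE 0.08) and at 78 weeks differed from 21 weeks by -0.10 (SE 0.08, not called). Ndufaf4 was called in neither comparison (0.08 and -0.10). Scaled to the subunits' own mean, as an alternative chosen after the data were seen, Ndufaf4 was lower at 21 than at 8 weeks (-0.38, SE 0.07, adjusted p 0.000184, limma), while Ndufaf3 differed by 0.02 (SE 0.08). On that scale 6 of the 41 genes were called between 21 and 8 weeks, 2 higher (Ndufs3 and Ndufa12) and 4 lower (among them Ndufa7, Ndufaf4 and Ndufa9). Of all probes 34.1% were called, 1.47% higher and 32.7% lower. That scale centres the subunits near 0 by construction, so the contrast with all probes is not a finding about them. Of 9 other assembly genes measured, among them Acad9, Ecsit and Tmem126b, 6 were higher at 21 than at 8 weeks and 4 were lower at 78 than at 21 weeks, where 39.0% of all probes were higher in the first comparison and 16.6% lower in the second. Of 10 regulators of mitochondrial gene expression, 5 were higher and 4 lower at 21 than at 8 weeks, against 39.0% and 14.6% of all probes. Tfam, which maintains mitochondrial DNA, was higher by 0.36, while Ppargc1a, a coactivator of mitochondrial genes, was lower (-0.84).

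Between 78 and 8 weeks, the only pair of ages that shared a slide, the complex as a whole showed little difference on this scale. The mean of the 30 subunits differed by 0.01 (SE 0.05) scaled and by -0.27 (SE 0.08) unscaled, and the 41 genes had a scaled median of -0.03, against 0.125 for all probes. Only 2 of the 41 were called, 1 in each direction, while 8.85% of all probes were, 4.78% higher and 4.07% lower. No gene separated the ages without overlap, against 1.99% of all probes. The Ndufa10 probe, whose strand label differed from that of its RefSeq gene, was higher at 78 weeks, and the Ndufs1 probe was lower.

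Ndufs1, the largest subunit of the core and the carrier of several iron-sulfur clusters, read 4.85, 4.40, 4.21, 4.34 and 4.63 in the 8-week females and 4.39, 4.56, 4.61, 4.73 and 4.38 in the 8-week males. At 78 weeks it read 4.00, 3.66, 4.08, 5.03 and 3.87 in females and 3.74, 3.67, 4.02, 4.40 and 3.73 in males. In each sex 4 of the 5 old hearts lay below all young hearts and the remaining one, replicate 4, lay among or above them. The difference was -0.49 (SE 0.13, adjusted p 0.0184, limma). It was -0.44 (adjusted p 0.0506) without the arrays that disagreed with their label, and on the shared slide -0.63 without passing the test (adjusted p 0.468). Under quantile normalization it was -0.50 (adjusted p 0.0105).

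Ndufv1, the subunit that binds NADH and the flavin and sits against Ndufs1, had the same high hearts. Its 78-week signals were 4.94, 4.61, 4.86, 5.71 and 4.87 in females and 4.68, 4.62, 4.83, 5.39 and 4.64 in males, against 4.92 to 5.22 over all 8-week hearts. Replicate 4 was again the highest of its group in both sexes. Both arrays lay on 1 slide, which also held replicate 5 of each sex (4.87 in the female and 4.64 in the male). The age difference was -0.15 (SE 0.11) and was not called. Leaving out the female replicate 4 took the count of called genes from 2 to 4 and the Ndufs1 difference to -0.60 (adjusted p 0.00028, limma).

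Ndufa10, a proximal membrane subunit related to nucleoside kinases, read -2.03, -1.68, -1.56, -1.82 and -1.85 in young females and -1.81, -2.24, -1.73, -1.96 and -1.33 in young males. In old hearts it read -1.0, -1.25, -1.24, -1.38 and -0.84 in females and -1.13, -1.13, -1.04, -1.35 and -1.05 in males. Of the young hearts, only male replicate 5 reached the range of the old. As given above, the strand label of this probe in rn3 differed from that of the RefSeq gene in GRCr8. Whether the probe reads the gene's own transcript was not tested. The difference was 0.66 (SE 0.11, adjusted p 0.000221, limma), and it was called in females alone (0.65), in males alone (0.67) and once both arrays of doubtful sex were left out (0.66, adjusted p 0.000902). On the shared slide it was 0.53 and did not pass (adjusted p 0.625), as none of the 41 genes did there. At 21 weeks it ranged from -1.56 to -0.81, and the 78-week hearts differed from these by 0.04 (SE 0.11, not called).

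**Figure D3:**
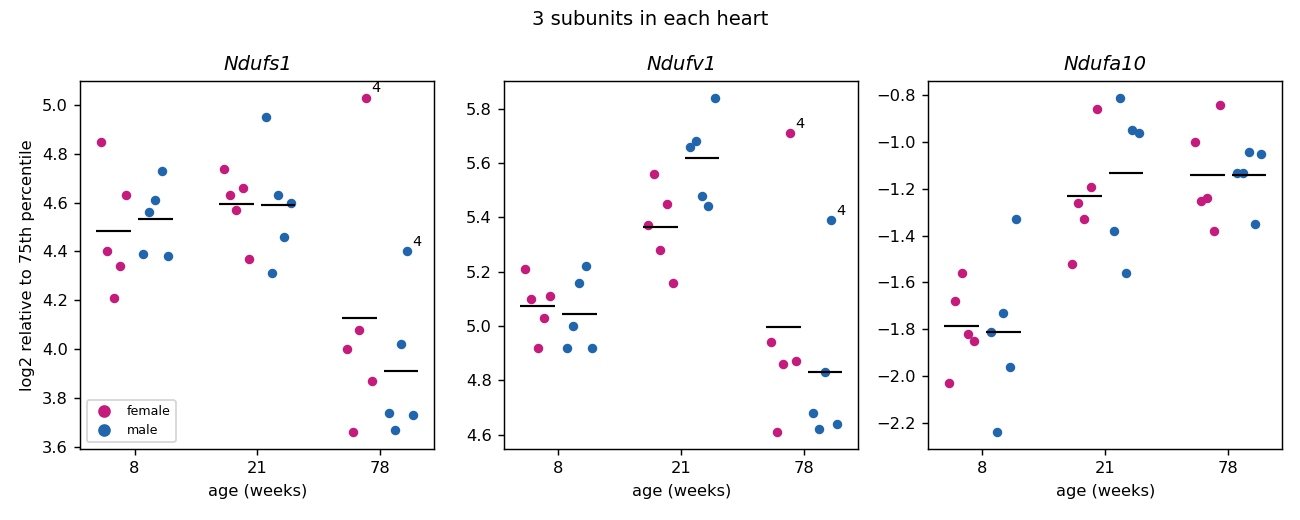
Signal of Ndufs1, Ndufv1 and Ndufa10 in each heart, as log2 relative to the array's 75th percentile; points are hearts, short lines group means of 5, and 4 marks replicate 4 of the 78-week groups. Apart from these marked hearts the 78-week Ndufs1 signals lie between 3.66 and 4.08, below the young range of 4.21 to 4.85, and Ndufa10 is lowest at 8 weeks.

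Measured against the mean of 30 subunits instead of the 75th percentile, 9 of the 41 genes differed between 78 and 8 weeks. Of all probes 7.61% did, 4.45% higher and 3.16% lower. This scale subtracts the mean of 30 of these same genes, so their differences centre near 0 by construction. Ndufa10 (0.65, SE 0.10), Ndufb4 (0.33, SE 0.08), Ndufb3 (0.21, SE 0.06) and Ndufa5 (0.20, SE 0.06) lay higher. Ndufs1 (-0.50, SE 0.15), Ndufs8 (-0.30, SE 0.08), Ndufa11 (-0.23, SE 0.06), Ndufb7 (-0.19, SE 0.05) and Ndufb10 (-0.19, SE 0.06) lay lower. Between 78 and 21 weeks, 12 genes differed on this scale, 6 higher and 6 lower. Of all probes 37.4% did, 35.9% higher and 1.47% lower. Since the scale centres these genes, neither the split nor the contrast with all probes is a finding about them. Ndufa7 (0.63, SE 0.09) and Ndufa10 (0.49, SE 0.10) led those above the rest and Ndufs3 (-0.33, SE 0.06) those below. Quantile normalization likewise gave 12 called genes between 78 and 8 weeks, 10 of them lower (10.8% of all probes, 6.14% lower), with Ndufs1, Ndufs8, Ndufa11, Ndufb7 and Ndufb10 again among the lower and Ndufa10 and Ndufb4 the higher.

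Probes of opposite strand gave other values than the gene's own probe. Rows of 8 genes (Ndufa3, Ndufa6, Ndufab1, Ndufb3, Ndufb10, Ndufc2, Ndufs7 and Ndufs8) rested on 9 dimmer probes on the other strand from the brightest, among them the opposite probes of Ndufa3, Ndufb10 and Ndufab1 printed above. They were grouped after their values had been seen, so the group is described and not tested. Only 6 of the 9, of 5 genes, were well above background on all 30 arrays; the probes of Ndufab1, Ndufb3 and Ndufc2 were so on 0, 2 and 6 arrays, and the sign of their differences was not read. Between 78 and 8 weeks all 6 differences lay above 0, from 0.43 to 0.56 with a median of 0.48, and 3 were called higher (Ndufa3 0.56, Ndufa6 0.48 and one of the Ndufb10 probes 0.44), against 4.78% of all probes called higher. The Ndufa10 difference of 0.66, from a probe whose strand label differed from that of its RefSeq gene, was larger than each of these. The brightest probes of the same genes differed by -0.29 to 0.22 and none was called. The opposite probe of Ndufa3 read 1.53, 1.79, 1.65, 1.70 and 1.70 in young females and 1.66, 1.35, 1.43, 1.28 and 1.90 in young males. In old hearts it read 2.34, 2.07, 2.10, 2.23 and 2.33 in females and 2.00, 2.22, 2.15, 2.16 and 2.01 in males. Old and young hearts did not overlap for this probe, whereas for the Ndufa3 probe of the other strand, 5.11 to 5.29 at 8 weeks and 5.06 to 5.37 at 78 weeks, they overlapped. On the shared slide 4 of the 6 were above 0 with a median of 0.30, and none was called. Without the arrays at odds with their label all 6 were above 0, with a median of 0.47, and 1 was called. All 6 opposite probes were also called higher at 21 than at 8 weeks (0.52 to 0.84, median 0.64), against 39.0% of all probes. Between 78 and 21 weeks none of them was called (median -0.18), against 29.9% of all probes. A second Ndufv2 row rested on a probe whose strand could not be compared and which was well above background on 18 of 30 arrays. Between 78 and 8 weeks this row was higher by 0.86 (SE 0.24, adjusted p 0.0207, limma), while the first row differed by 0.01.

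**Figure D4:**
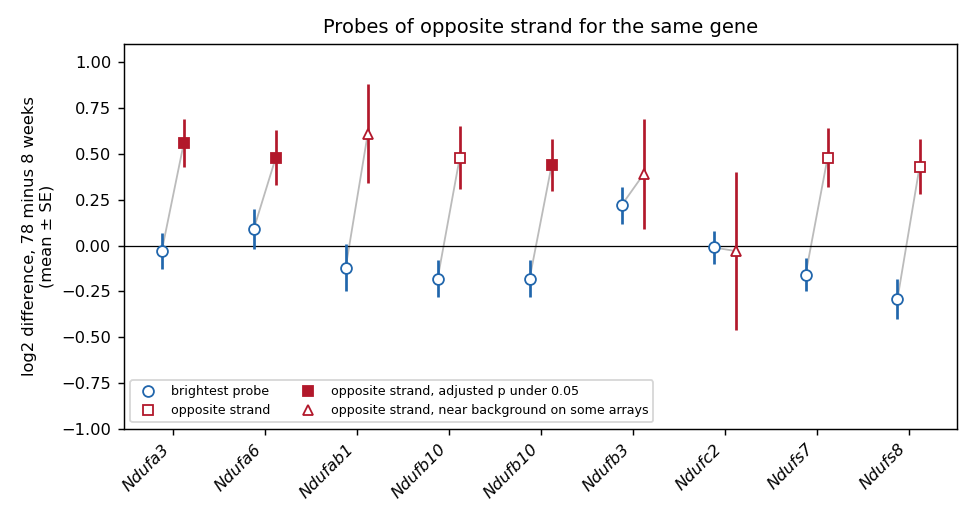
Log2 difference between 78 and 8 weeks (mean ± SE, 10 hearts at each age) of the brightest probe of each gene, as circles, and of its probe on the opposite strand, as squares or, where some arrays were not well above background, triangles; Ndufb10 appears once for each of its opposite probes. The squares lie between 0.43 and 0.56 and the circles between -0.29 and 0.22.

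Males and females were then compared within each age on the authors' scaled values, where both sexes had been processed together. None of the 41 genes was called at any age (limma), and 0, 2 and 0 of them had an unadjusted p below 0.05 at 8, 21 and 78 weeks. Of all rows, 0.102%, 0.0511% and 0% were called at these ages, and 5.74%, 15.9% and 5.65% had an unadjusted p below 0.05. An ordinary analysis of variance on the same values gave 0, 3 and 6 genes at unadjusted p below 0.05 and none after adjustment. Of all rows, 0.0766%, 0.0511% and 0% were called in it after adjustment. The unadjusted shares above are those of limma, so its unadjusted counts have no share of all rows beside them. The median half-width of the 95% interval was 0.19 at 8 weeks, 0.42 at 21 weeks and 0.22 at 78 weeks, which bounds what could be seen.

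At 8 weeks the differences, female minus male, ran from -0.06 to 0.10. Among the lowest p values were those of Ndufa13 (0.09), Ndufb9 (0.09) and Ndufb11 (0.06), each with an adjusted p of 0.941 or above. At 21 weeks all 41 genes read lower in females, with a median of -0.28, where the median of all rows was -0.14. On the scanner values the median turned with the processing, from -0.06 after quantile normalization to 0.32 after normexp. Ndufa6 read 7.82, 7.99, 7.93, 7.88 and 8.07 in females, against 7.96, 8.06, 8.30, 8.85 and 9.08 in males (-0.51, SE 0.22, adjusted p 0.302, limma). Ndufs5, a membrane subunit of the intermembrane space side, differed by -0.47 (SE 0.21), Ndufb11 by -0.43 (SE 0.20) and Ndufv1 by -0.27 (SE 0.13), none of them called. The SD of Ndufa6 was 0.49 in males and 0.09 in females, while that of Ndufv1 was 0.14 and 0.16.

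At 78 weeks 37 of the 41 genes read higher in females, with a median of 0.12 (-0.255 on the scanner values after normexp). Ndufa1, an X-linked membrane subunit, read 7.63, 7.37, 7.62, 7.51 and 7.52 in hearts labelled female and 7.32, 7.37, 7.48, 7.22 and 7.30 in hearts labelled male. The groups overlapped through female replicate 2 (7.37) and male replicates 2 (7.37) and 3 (7.48), and female replicate 2 and male replicate 3 are the arrays whose Y-linked genes disagreed with the label. The difference was 0.19 (95% interval -0.01 to 0.40, adjusted p 0.856, limma), and 0.27 without those arrays (adjusted p 0.534). Ndufs4, an accessory subunit of the matrix arm, differed by 0.28 with them and 0.41 without, Ndufb2 by 0.17 and 0.26, and Ndufv3 by 0.16 and 0.21. Without these arrays 4 genes had an unadjusted p below 0.05, a count without a share of all rows beside it. None was called, against 0.0339% of all rows. Whether the sex difference itself changed from 8 to 78 weeks was also tested, and none of the 41 genes was called or had an unadjusted p below 0.05, with no call among 40999 probes.

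From heart to heart, the subunits rose and fell together on this scale. After removal of the 6 group means, the median Pearson r over the 630 pairs of 36 subunits was 0.73 across 30 arrays, against 0.14 between subunits and 14360 other detected probes. It was 0.54 among the 8-week, 0.87 among the 21-week and 0.58 among the 78-week hearts alone (n = 10 each). Without the arrays at odds with their label it was 0.73 over 28 hearts and 0.43 over the 8 left at 78 weeks. These pairs share the array and its scale, and under quantile normalization the median was 0.18, against 0.02 with other probes. Saturated Ndufb8, among the 36, still gave r = 0.71 with the mean of the other subunits, and 0.14 after quantile normalization. Closeness to the subunits was not particular to complex I. The median r of genes of complexes II, III, IV and V with the subunits was 0.50, 0.67, 0.70 and 0.68. After quantile normalization it was -0.04, 0.17, 0.17 and 0.09. Ndufv2 followed the mean of the other subunits most closely (r = 0.95), then Ndufa13 (0.94, 25 hearts) and Ndufa4, Ndufa6, Ndufb5, Ndufb6, Ndufs6 and Ndufv3 (0.93 each). The assembly factors Ndufaf3 (0.77), Ndufaf1 (0.65) and Ndufaf4 (0.64) followed less closely, and so did Ndufa10 (0.50), Ndufv1 (0.38), Ndufc1 (0.19) and Ndufs1 (-0.02). Under quantile normalization the highest were Ndufa11 (0.78) and Ndufs8 (0.72).

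Ndufs1 and Ndufv1, set apart from the rest, followed each other. Their r was 0.86 over 30 hearts and 0.91 under quantile normalization, the highest of all pairs there. It was 0.87 among the 8-week and 0.98 among the 78-week hearts but 0.32 among the 21-week hearts, and 0.64 without both 78-week replicates 4. Without the arrays at odds with their label it was 0.85 over 28 hearts and 0.98 over the 8 at 78 weeks. With Ndufv2, their partner in the NADH-binding part, the sign of r was not the same at every age. Ndufs1 gave -0.61 among the 8-week and -0.76 among the 21-week hearts but 0.73 among the 78-week hearts, and -0.17 over all, which became -0.49 without both 78-week replicates 4. Ndufv1 gave -0.64, 0.28 and 0.80 at these ages, 0.23 over all and 0.14 without those replicates. Ndufs4 and Ndufs8 also kept their relation under both scales (0.88 and 0.84).

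**Figure D5:**
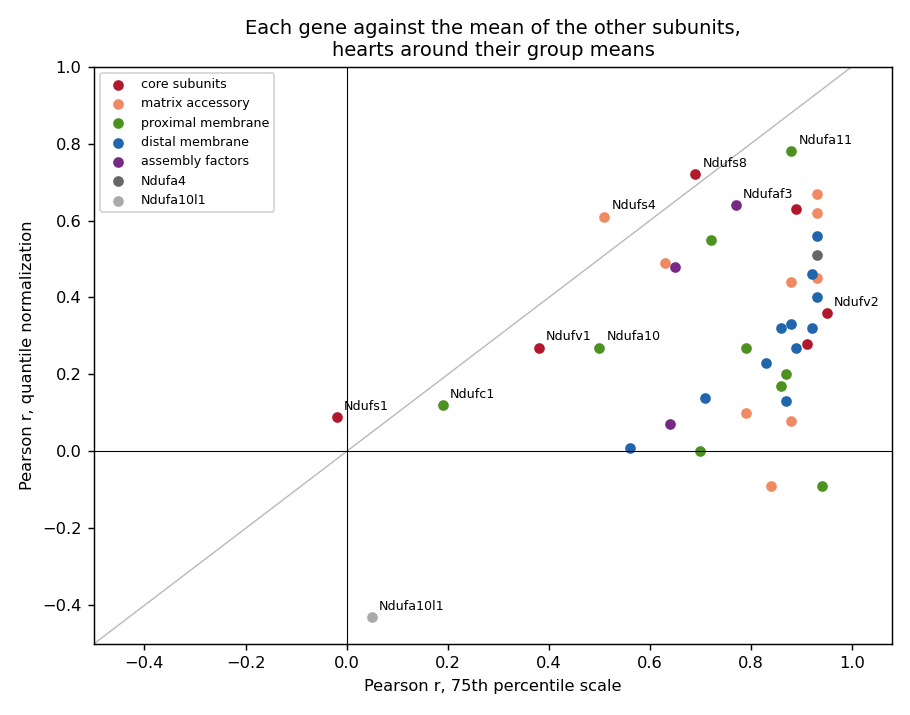
Pearson r of 40 of the 41 genes with the mean of the other subunits over 30 hearts around their group means (13 hearts for Ndufa10l1), on the 75th percentile scale (horizontal) and after quantile normalization (vertical); the diagonal marks equal values. Most genes lie at 0.70 or above on the first scale and between -0.09 and 0.78 on the second, whereas Ndufs1 and Ndufc1 are low on both.

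Outside the complex, the named genes closest to the mean of the subunits over the 30 hearts, among 11628 searched, were RGD1560451 and Gng5 (r = 0.958 each), Atp5c1 (0.952), Nme2 and Fabp3 (0.946 each), RGD1565054 (0.941), and Chchd2 and Pebp1 (0.940 each). Atp5c1 encodes a subunit of ATP synthase, and Fabp3 the fatty acid binding protein of heart muscle. Under quantile normalization their r ranged from 0.10 (Pebp1) to 0.74 (Fabp3).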

How the data were processed

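RNA from 30 frozen, powdered rat hearts was hybridized to 1-colour Agilent arrays and read with Feature Extraction 9.5.1.1, whose spot intensity columns the authors deposited unscaled, with rn3 coordinates. The authors also deposited 1 table per age of linear signal divided by the array's 75th percentile, with probes averaged per gene and unexpressed genes removed. Between 99.67% and 99.69% of table rows matched the scanner files within 0.002 log2; the 21-week male columns were assigned to their group only.

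Ages were compared on log2 of the deposited processed intensity minus log2 of the array's 75th percentile over non-control spots; flagged spots (0.3113%) were left out. Sexes were compared on log2 of the authors' table values. Tests were two-sided, in limma 3.58.1 (R 4.3.3), over all probes or rows, with Benjamini-Hochberg adjustment at 0.05, and were tested on simulated data. The p-values measure the spread between hearts, each on 1 array, so rat and array cannot be told apart in them. For age they do not cover the batch. Each gene was represented by the probe with the highest mean over all arrays. Named genes were the assembly factors, up to 6 called genes with the largest difference in each direction and age comparison, the 4 lowest p between sexes at each age, Ndufa1, Ndufa4, the 3 highest and 3 lowest SDs within groups, and genes whose rows differed in sign; 1 gene is counted but not reported here by name. Members, role lists and marker lists were chosen with earlier results of these data known. Females lay at positions 2 and 4 and males at 1 and 3 of each slide, so position and sex cannot be told apart. Hearts of the same replicate number shared a slide, and their deviations correlated at -0.21 to 0.19 at 8 weeks, -0.15 to 0.57 at 21 weeks and 0.14 to 0.30 at 78 weeks. Alternatives were quantile normalization, normexp background correction (offset 50), raw median signal, filters, blocks and left-out arrays.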

Additional observations from a re-analysis of the deposited data

Results flagged for a closer look

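In 12 of 162 groups of 5 hearts tested, 1 heart stood far from the other 4, where chance alone marks about 1 group in 20. In 6 of them the heart was male replicate 4 at 78 weeks, which was the highest of its group. It read 9.44 for Ndufa12 (others 8.79 to 8.87), 9.22 for Ndufb4 (8.63 to 8.79), 8.42 for Ndufa6 (8.30 to 8.33), 7.75 for Ndufb11 (7.42 to 7.48), 5.39 for Ndufv1 (4.62 to 4.83) and 3.86 for the assembly factor Ndufaf3 (3.26 to 3.39). Female replicate 4 at 78 weeks was highest for Ndufa9, at 7.12 (others 6.61 to 6.74). Female replicate 1 at 78 weeks was highest for Ndufaf4, at 3.99 (3.72 to 3.78), and male replicate 1 at 78 weeks for Ndufc1, at -2.57 (-3.65 to -3.45). Female replicate 2 at 78 weeks, an array at odds with its sex label, was lowest for Ndufv2, at 8.10 (8.30 to 8.38). At 8 weeks, female replicate 1 was lowest for Ndufb2, at 7.04 (7.27 to 7.29), and for saturated Ndufb8, at 8.71 (9.02 to 9.13).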

How the results depend on the processing

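Between 78 and 8 weeks, where 2 genes were called, the count was 12 under quantile normalization, 1 under normexp, 4 with raw median signal, 5 among probes above background in at least 1 group, 1 without the arrays at odds with their label, 1 in females alone, 1 in males alone, 5 with the first row of each name and 6 over every row. It was 0 with slide as a fixed block (0.473% of all probes) and 0 within the shared slide (0%). The main scale called 8.85% of all probes, which also stands beside the first-row and every-row counts. Quantile normalization called 10.8%, normexp 1.72% and raw median signal 7.91%. The share was 22.3% of probes above background in at least 1 group, 2.28% in females alone and 3.66% in males alone. Leaving out both arrays of doubtful sex gave 7.15%. Chosen after seeing the data, the count was 14 under normexp without the 2 arrays on which that correction lowered the genes most. There 39.4% of all probes were called, so the larger count was not particular to complex I. Also chosen after seeing the data, scaling to the 75th percentile of probes detected on every array gave 4 (9.42%). The subunit mean, chosen likewise, gave 9 (7.61%). Leaving out 1 heart gave 2 to 4, with 4 without male 21-week replicate 5 and without female 78-week replicate 4. Between 78 and 21 weeks (31 called, 29.9%) normexp gave 0 (2.68%), and 32 (17.1%) without the 2 arrays on which it lowered the genes most. The subunit mean gave 12 (37.4%), females alone 5 (8.57%) and leaving out 1 heart 30 to 34. Between 21 and 8 weeks (36 called, 53.5%) quantile normalization gave 13 (31.2%). Normexp gave 1 (6.3%), and 30 (75.9%) without those 2 arrays. The subunit mean gave 6 (34.1%), females alone 2 (6.89%) and leaving out 1 heart 35 to 37. The median r over subunit pairs was 0.18 under quantile normalization, and 0.43 at 78 weeks without the arrays at odds with their label.

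Directions reversed under quantile normalization for Ndufb9 between 78 and 8 weeks (-0.14), and for Ndufa1 (-0.17) and Ndufa9 (-0.08) between 21 and 8 weeks. Under normexp they reversed between 21 and 8 weeks for Ndufa1 (-0.16), Ndufa9 (-0.16), Ndufv1 (-0.04), Ndufa11 (-0.02) and Ndufb10 (-0.02). Normexp took the mean of the genes to 3.89 in male 21-week replicate 2 and 3.61 in female 78-week replicate 1, against 5.10 to 6.31 elsewhere. Apart from this the causes were not tested. With the replicate block the counts were 2, 31 and 36 (8.03%, 28.8% and 51.7% of all probes), and 0 for each sex comparison. Of 3614 refits of single genes, 3484 kept direction and call. Saturation of Ndufb8 and the weak signal of Ndufc1 limit what either can show.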
